A study of Mus musculus with 3 samples.

Results

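The cells described here are endothelial-gated barcodes of the mouse aortic arch intima, the inner layer of the vessel wall. They were chosen by marker counts, 440 of the 8284 barcodes kept after quality limits and of the 12082 deposited. A kept barcode had 500 or more UMIs (unique molecular identifiers, one per captured transcript) and 300 or more genes, with a mitochondrial share of 15% or less. It entered the gate with a UMI in at least 4 of 10 endothelial genes (Pecam1, Cdh5, Egfl7, Ptprb, Tie1, Emcn, Esam, Cldn5, Eng and Vwf) whose sum reached 0.3% of its remaining UMIs, that is those left after removing mitochondrial, Gm42418, AY036118 and haemoglobin genes. That sum also had to exceed the sum of the 5 fibroblast genes Dcn, Lum, Pdgfra, Pi16 and Dpt, with at most 1 UMI of the leukocyte gene Ptprc. The gate held 30 of 431 kept barcodes in control replicate 1, 162 of 2697 in control replicate 2 and 248 of 5156 in the LPS library. These are 6.96% (exact 95% binomial interval 4.75 to 9.79%), 6.01% (5.14 to 6.97%) and 4.81% (4.24 to 5.43%) of the kept barcodes.

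Droplet 3′ single-cell RNA was sequenced from cells loosened with a pipette tip from the lesser curvature of the arch, after a brief digestion with collagenase D and DNase I. All mice were C57BL/6J wild type of 12 to 13 weeks, males and females pooled, 5 to 10 animals per library, and the tissue of all was perfused with the transcription blocker actinomycin D. The 2 control libraries came from untreated mice. The 1 LPS library came from mice given 30 ug of ultrapure lipopolysaccharide, a bacterial cell wall component, intravenously 18 h before harvest.

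Endothelial cells line the vessel lumen, hold the barrier between blood and wall, and set vascular tone through nitric oxide, prostanoids and peptides. Lipopolysaccharide is sensed by the receptor TLR4 with its partners CD14 and LBP, which leads to NF-kB activity and, through type I interferon, to the transcription of interferon-stimulated genes. Activated endothelium is known for displaying selectins and the adhesion molecules ICAM-1 and VCAM-1, by which leukocytes roll and attach, and for releasing chemokines.

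The 10 gate markers chose the barcodes, so their levels are a description without a test. Throughout, groups of 3 values are in the order control replicate 1, control replicate 2 and LPS. Pecam1, an adhesion protein of endothelial contacts, stood at 4406, 2936 and 2408 CPM, that is UMIs scaled to a common total, here of the remaining UMIs, and Cdh5, the cadherin of endothelial junctions, at 580.1, 507 and 599. Ptprb, a phosphatase of the angiopoietin receptor, stood at 3076, 1782 and 578 and Cldn5, a tight junction claudin, at 515, 687 and 187, both lowest in the LPS library. Emcn, a sialomucin of venous and capillary endothelium, was highest there at 332, 587 and 742, and Vwf, the von Willebrand factor, was lowest there at 1304, 1162 and 736. A UMI of Pecam1 was present in 29 of 30, 151 of 162 and 227 of 248 barcodes.

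The label held in part. The summed markers of another class reached the endothelial sum in 0, 108 and 87 barcodes, which are 0, 66.7 and 35.1% of the gate and hold 0, 41.7 and 15.5% of its UMIs. Smooth muscle and pericyte markers did so in 0, 107 and 57 barcodes, fibroblast markers in 0, 31 and 13, erythroid markers in 0, 35 and 74, and mononuclear phagocyte markers in 0, 8 and 0. The 12 smooth muscle and pericyte markers made 0.0443, 0.541 and 0.0847% of the remaining UMIs, with 7, 11 and 11 of them detected and Notch3 at 0 in all. T and NK markers held 2, 93 and 19 UMIs and neutrophil markers 0, 1 and 86. Most of the barcodes in which smooth muscle markers reached the sum lay at the low end of the gate. The other classes are not split by marker number here. Smooth muscle markers reached the endothelial sum in 0 of 9, 89 of 90 and 56 of 132 barcodes with 4 or 5 endothelial markers. With 6 or 7 markers they did so in 0 of 7, 16 of 22 and 1 of 37 barcodes, and with 8 to 10 in 0 of 14, 2 of 50 and 0 of 79. The barcodes with 8 to 10 markers carried 71.4, 56.7 and 70.3% of the gate's UMIs, at median depths of 7895.5, 8439.5 and 12679 UMIs, so the summed profiles rest mainly on them. Those of them in which no other class reached the sum, 14, 47 and 78 barcodes, are called cells with at least 8 markers below. Their values stand beside many results of the whole gate, but not for every list. That subset was chosen after the data had been seen.

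**Figure D1:**
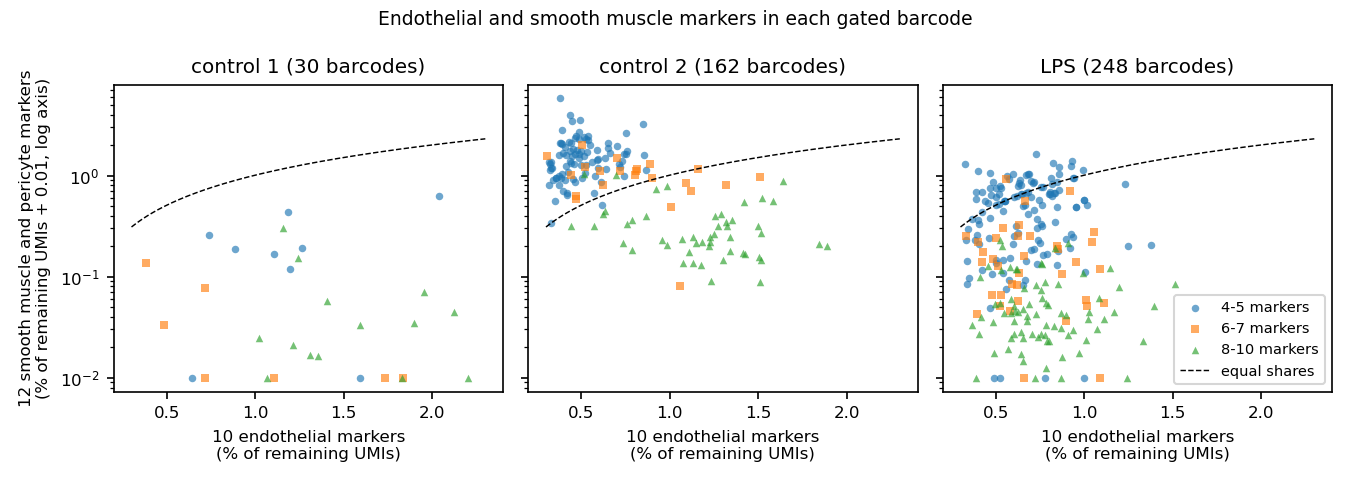
Each point is one gated barcode of the named library; the horizontal axis is the share of the 10 endothelial markers and the vertical log axis that of the 12 smooth muscle and pericyte markers plus 0.01, both in % of remaining UMIs, with the dashed line at equal shares. In control replicate 2, 89 of 90 barcodes with 4 or 5 markers lie on or above the line, and in control replicate 1 none does.

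Just outside the gate, 10, 86 and 323 barcodes had 3 markers and met every other limit, against 5, 61 and 97 with exactly 4. A marker sum of 0.2 to 0.3% kept out 0, 19 and 13 barcodes, where 1, 25 and 17 inside had 0.3 to 0.4%. A mitochondrial share of 15 to 25% kept out 22, 351 and 75.

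The libraries differed in ways the groups do not define. The gated barcodes held 199818, 840018 and 1863368 UMIs, at medians of 5445.5, 3049 and 3556.5 UMIs and 1937, 1050 and 1237 genes, and mitochondrial medians of 10.1, 11 and 7.80%. The predicted gene Gm42418 took a median of 14.3, 2.10 and 22.7% of a barcode's UMIs, with 13, 0 and 146 barcodes above 20%, and haemoglobin genes made 0.0320, 19.4 and 3.2% of all UMIs. Libraries shared 1 to 6 barcode sequences in pairs, and 0 of them were gated. With 1 LPS library, treatment and library cannot be told apart, and the part of these differences in the results was not tested except where a value is given.

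The comparison of the LPS library with both controls asks which transcripts of the gated cells differ 18 h after the endotoxin. UMIs were summed over the gated barcodes of each library, and levels are CPM of these sums. Fold changes are log2 LPS minus control with their standard error (± SE). Among 8970 genes that no part of the gate used, 266 were higher with LPS (2.97% of those tested) and 207 lower (2.31%), 473 in either direction (5.27%), at an adjusted p under 0.05 in edgeR's quasi-likelihood test. The median log2 fold change over all genes tested was -0.02. The LPS level lay above both controls for 266 of the 266 and below both for 201 of the 207, where 36.1 and 32.8% of all genes tested did so. The controls themselves differed by over 2-fold (after adding 5 CPM) for 1835 genes, 20.5%. In cells with at least 8 markers, 463 of 7579 genes were higher (6.11%) and 409 lower (5.40%), among them 258 of 262 of the higher and 170 of 188 of the lower genes that could be tested again. The fit for that subset pooled the spread between libraries fully over genes, at a common dispersion of 0.0625 in place of 0.107. A gene that passed there alone is therefore not on the same footing as one that passed in the gate. The counts fell to 94 and 58 with DESeq2, and to 0 and 0 without barcodes over 20% Gm42418, where 555 and 564 genes had an unadjusted p under 0.05.

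Among the 12 higher genes with the largest change that were also enriched in gated cells were secreted proteins of acute inflammation, chemoattractants and extracellular proteases. Enriched means against all other kept barcodes together. In the LPS library Lcn2 stood at 11357 CPM in endothelial and 9531 CPM in phagocyte sums. Lbp stood at 183 CPM in endothelial and 194 CPM in fibroblast sums. Tmem252 lay further apart, at 497 and 13.8 CPM in endothelial and phagocyte sums. None of the 12 passed the test of the difference between responses described below, against either class. For Csf3, Car4 and Adamts4, with 0 UMIs in every control sum, it could not decide. Lcn2 and Tmem252 had at most 1 UMI in an endothelial control sum and 0 in the fibroblast ones, so it had little to compare. Lcn2, encoding the iron-siderophore binding protein lipocalin 2, gave 0, 1 and 21238 UMIs, a level of 0, 1.30 and 12159 CPM. The LPS level was 12073-fold (95% counting interval 2167 to 476881) higher than in the controls, a ratio that rests on 1 control UMI. Csf3, the granulocyte colony-stimulating factor, and Cxcl9, a CXCR3 ligand, gave 0 UMIs in both controls against 1056 and 1032 in the LPS library. The LPS level of Csf3 was at least 200.1-fold and that of Cxcl9 at least 196-fold higher, counting 3 UMIs over both controls as the floor. Ccl2, the monocyte chemokine, gave 0, 1 and 1295 UMIs and was 736-fold (95% counting interval 132 to 29099) higher. None of these 4 genes had a control library above 1 UMI, so the sizes are set by counting in the controls. Such floors would be 4.49 times lower against control replicate 1 alone and 1.29 times lower against control replicate 2 alone, since 77.7% of the control UMIs are in the latter.

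Lbp, a secreted protein which hands lipopolysaccharide to CD14, gave 1, 2 and 387 UMIs and was 73.3-fold (95% counting interval 24.9 to 357) higher. Both ADAMTS metalloproteinase genes cleave proteoglycans of the matrix: Adamts4 gave 0, 0 and 188 UMIs and was at least 35.6-fold higher, and Adamts9 gave 1, 1 and 253 UMIs and was 71.9-fold (95% counting interval 19.7 to 597) higher, with fitted log2 values of 6.11 ± 0.74 for Lbp and 6.04 ± 0.78 (6.66 without control replicate 1 and 4.96 without control replicate 2) for Adamts9. Car4, a membrane-bound carbonic anhydrase of capillary endothelium, gave 0, 0 and 191 UMIs and was at least 36.2-fold higher. Tmem252, a little-studied membrane protein gene, gave 0, 1 and 930 UMIs and was 529-fold (95% counting interval 94.7 to 20904) higher. Ptgs2, the inducible cyclooxygenase of prostanoid synthesis, stood at 13.6, 3.89 and 362 CPM, a change of 5.77 ± 0.75 (6.49 without control replicate 1 and 4.73 without control replicate 2) with adjusted p = 5.52e-06. Lyve1, a hyaluronan receptor of lymphatic endothelium and of some macrophages, stood at 13.6, 3.89 and 262 CPM, a change of 5.31 ± 0.72 (6.03 without control replicate 1 and 4.26 without control replicate 2) with adjusted p = 9.34e-06. Rasd1, a dexamethasone-induced small GTPase, stood at 0, 10.4 and 249 CPM, a change of 5.02 ± 0.70 (not estimable without control replicate 2, since the other control held 0 UMIs). An LPS level above both controls was a condition for naming these 12 genes.

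**Figure D2:**
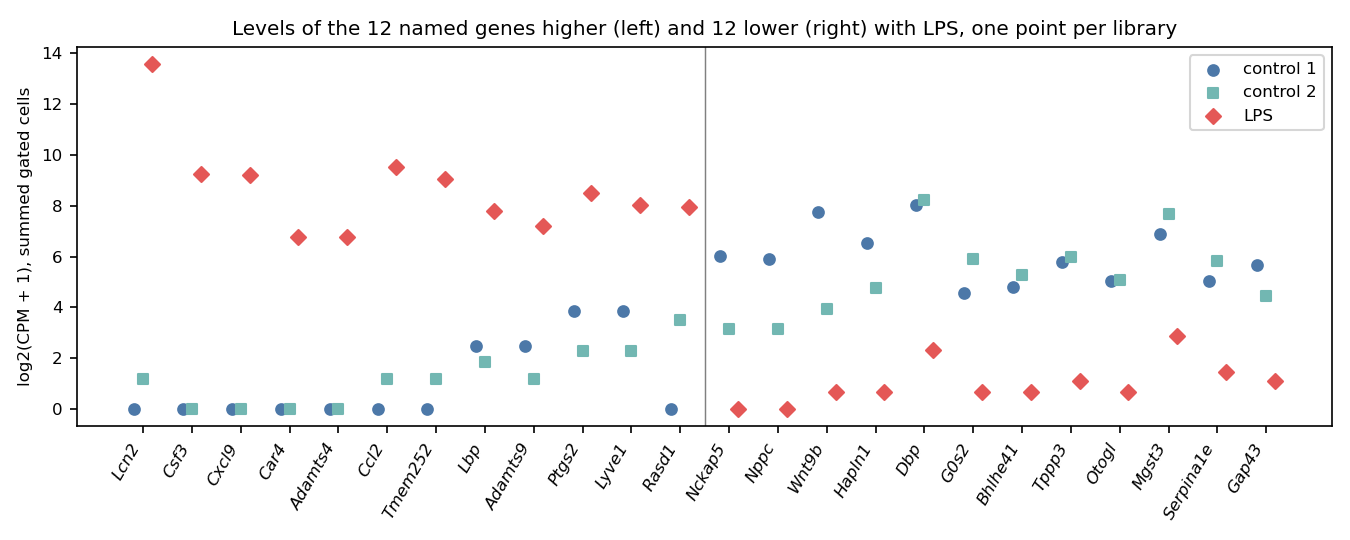
Points are log2(CPM + 1) of summed gated barcodes, one per library, for the 12 named genes higher with LPS (left of the line) and the 12 lower (right). An LPS level outside both controls was a condition for choosing these genes, and the plot shows how far apart the 3 libraries lie, from Lcn2 at 0, 1.30 and 12159 CPM to Dbp at 258, 301 and 4.01 CPM.

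The 12 lower genes with the largest change among those also enriched in gated cells included 2 clock genes and 2 genes of valves. Enriched again means against all other kept barcodes together. In fibroblast sums of the controls Tppp3 stood at 88.1 and 85.4 CPM, against 43.9 and 50.1 CPM in endothelial sums. Dbp stood at 217 and 160 against 209 and 242 CPM, and Bhlhe41 at 47.5 and 29.2 against 22.0 and 30.2 CPM. The rest of the 12 were higher in endothelial sums of both controls. Against fibroblasts none of the 12 passed the test of the difference between responses. It could not decide for Nckap5 and Nppc. Dbp, a transcription factor driven directly by the circadian clock, stood at 258, 301 and 4.01 CPM and fell by 6.08 ± 0.88 on the log2 scale (adjusted p = 2.69e-05). Bhlhe41, a clock repressor, gave 6, 29 and 1 UMIs and was 61.6-fold (95% counting interval 10.3 to 2500.5) lower. Both controls were close for these 2 genes. An LPS level below both controls was a condition for naming the 12 lower genes. Wnt9b, a Wnt ligand of valve endocardium, gave 47, 11 and 1 UMIs and was 102-fold (95% counting interval 17.6 to 4099) lower, and Hapln1, a hyaluronan link protein gene of valves, gave 20, 20 and 1 UMIs and was 70.4-fold (95% counting interval 11.9 to 2848) lower. Control replicate 1 stood well above control replicate 2 for both: the fitted log2 value was -7.11 ± 1.29 (-4.34 without control replicate 1 and -8.23 without control replicate 2) for Wnt9b and -6.16 ± 1.04 (-5.20 without control replicate 1 and -7.0 without control replicate 2) for Hapln1. Nppc, the C-type natriuretic peptide gene, gave 13, 6 and 0 UMIs and was at least 11.1-fold lower, counting 3 UMIs in the LPS library as the floor. Nckap5 gave 14, 6 and 0 UMIs and was at least 11.7-fold lower on the same floor. In control replicate 1 CPM were 63.3 and 58.8 for Nckap5 and Nppc, against 7.77 in control replicate 2 for each. Their fitted changes were -7.72 and -7.63. The log2 CPM difference from control replicate 2 alone was -5.85 for each. The counts added before taking logs set that size, since the LPS library held 0 UMIs. Few control barcodes carried these UMIs. Wnt9b was seen in 3 of 30 and 4 of 162 gated control barcodes, Hapln1 in 3 and 6, Nckap5 in 3 and 3, and Nppc in 1 and 3. The counting intervals do not cover the spread between barcodes. Hapln1 and Nckap5 were not tested in cells with at least 8 markers.

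G0s2, an inhibitor of triglyceride breakdown seen in 2 of 30 and 24 of 162 control barcodes, gave 5, 46 and 1 UMIs and was 89.7-fold (95% counting interval 15.4 to 3612) lower (fitted log2 -6.01 ± 1.00 (-5.0 without control replicate 2)). Mgst3, a microsomal glutathione transferase, stood at 118, 201 and 6.30 CPM and fell by 4.66 ± 0.77 on the log2 scale (adjusted p = 1.87e-04). Tppp3, a tubulin-binding protein gene, gave 12, 48 and 2 UMIs and was 52.8-fold (95% counting interval 14.0 to 446) lower, and Otogl, an otogelin-like gene, gave 7, 25 and 1 UMIs and was 56.3-fold (95% counting interval 9.40 to 2292) lower. All 4 had both controls above the LPS library, which was a condition for naming them. Serpina1e, an alpha-1-antitrypsin gene with near-identical paralogs among which reads could be split, was seen in 1 of 30 and 8 of 162 control barcodes, gave 7, 43 and 3 UMIs and was 29.3-fold (95% counting interval 9.47 to 147) lower. Gap43, a growth-associated membrane protein gene best known from neurons, gave 11, 16 and 2 UMIs and was 23.7-fold (95% counting interval 5.97 to 206) lower (fitted log2 -4.63 ± 1.07 (-4.02 without control replicate 1 and -5.28 without control replicate 2)). Its adjusted p in cells with at least 8 markers was 0.142.

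In single barcodes, UMIs of the higher genes were seen across the LPS gate. To compare libraries, each barcode was thinned to 1000 remaining UMIs, which 22, 131 and 165 gated barcodes had and 8, 31 and 83 did not. A UMI of Lcn2 was seen in 0%, 0% and 95.8% of the thinned barcodes, and with no thinning in 0%, 0.617% and 98.8%. Free RNA in droplets also gives such UMIs. Lymphoid barcodes of the LPS library (T, NK and innate lymphoid, a class that should lack these genes, median depth 5785.5 UMIs against 3556.5 in the gate) carried Lcn2 in 45.2% (95% interval 34.8 to 55.8%). Csf3 was seen in 33.3% (95% interval 26.2 to 41.1%) of LPS gated barcodes against 4.30% (95% interval 1.18 to 10.6%) of lymphoid ones, and Tmem252 in 33.3% (95% interval 26.2 to 41.1%) against 0 of 93 lymphoid barcodes, which allows a share of up to 3.89% (upper bound of the exact interval). Lbp, Lyve1 and Rasd1 were seen in 20.6, 20.6 and 17.6% of LPS gated barcodes against 0, 1.08 and 1.08% of lymphoid ones. For Car4, Ccl2 and Cxcl9 the intervals of the gated and lymphoid shares overlapped (6.06% (95% interval 2.94 to 10.9%) against 2.15% (95% interval 0.262 to 7.55%) for Ccl2). The difference between the shares was not tested. Thinned to 500 UMIs, Cxcl9 was seen in 37 of 247 gated barcodes (95% interval 10.8 to 20.1%) and 3 of 96 lymphoid ones (95% interval 0.649 to 8.86%).

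The 12 higher genes were chosen for levels above both controls and above other barcodes, so their joint counts per barcode are a description of how they spread over the gate. Of the 12, a thinned LPS barcode carried a median of 3, between 1 and 8, and 0 of 165 carried none, where 41 of 93 lymphoid barcodes carried none. At least 3 of the 12 were seen in 104 of 165 gated LPS barcodes (63.0%) and in 2 of 93 lymphoid ones. The median was 3 in the 51 barcodes with 4 or 5 markers, in the 35 with 6 or 7 and in the 79 with 8 to 10. The LPS gate held 132, 37 and 79 such barcodes, so most of those with 4 or 5 markers were too shallow to be covered. Lcn2 alone gave a median of 7 UMIs per thinned barcode, between 0 and 60, against a median of 0 and at most 5 in lymphoid barcodes. With Selp in place of Lcn2, 164 of 165 LPS barcodes carried at least 1 of the 12 genes, against 9 of 22 and 11 of 131 control barcodes and 36 of 93 LPS lymphoid barcodes. Selp was itself called higher and was seen in most of these LPS barcodes, so the count says little about the remaining genes.

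Of 4 adhesion molecules of activated endothelium, 3 passed. Selp, the P-selectin gene, stood at 312, 183 and 3212 CPM and rose by 3.72 ± 0.76 (adjusted p = 0.00190). It was seen in 27.3%, 6.87% and 92.7% of thinned barcodes and in 19.4% (95% interval 11.9 to 28.9%) of LPS lymphoid barcodes. Icam1 stood at 67.8, 220.3 and 1182 CPM and rose by 2.97 ± 0.68 (4.12 without control replicate 2) (adjusted p = 0.00586). Its share of barcodes was 13.6%, 14.5% and 66.1%. Sele, the E-selectin gene, stood at 40.7, 40.2 and 301 CPM, with close controls, and rose by 2.89 ± 0.59 (adjusted p = 0.00192). Vcam1 was already high in the controls, at 1655, 1394 and 2711 CPM and in 68.2%, 41.2% and 76.4% of barcodes, and its change of 0.83 ± 0.82 did not pass (adjusted p = 0.716, and 0.371 in cells with at least 8 markers). The differences between these 4 responses were not tested.

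**Figure D3:**
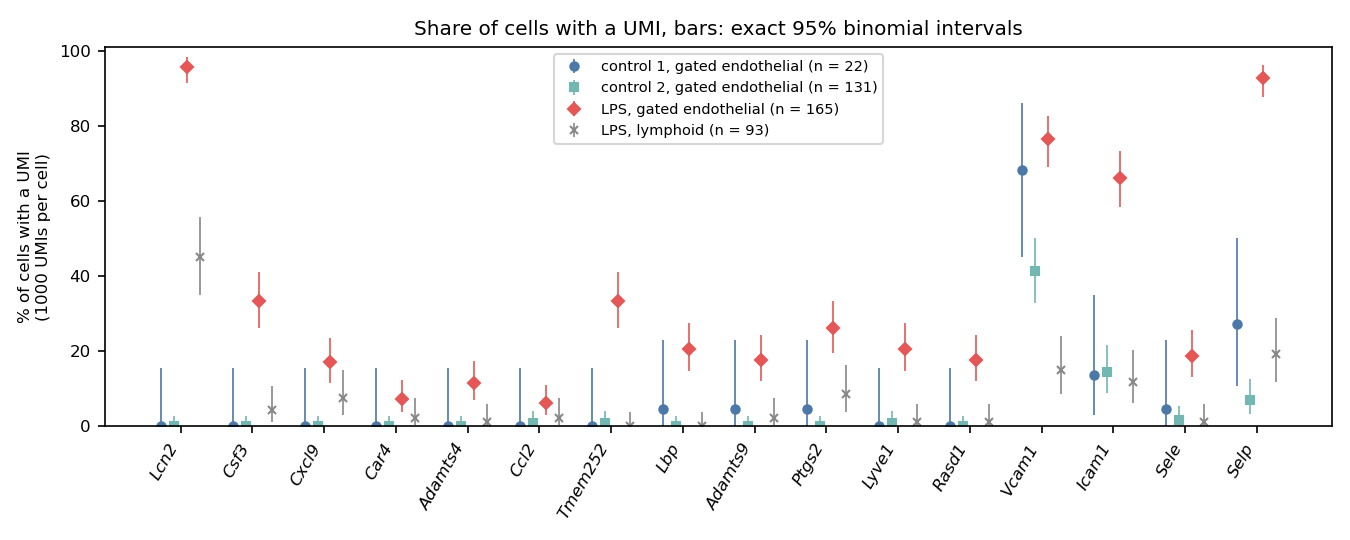
Shares of barcodes with at least 1 UMI of a gene after thinning to 1000 UMIs, in %, with exact 95% binomial intervals that cover counting error only, for gated barcodes of each library and lymphoid barcodes of the LPS library. Lcn2 and Selp reach 95.8 and 92.7% of gated LPS barcodes, against 45.2 and 19.4% of lymphoid ones.

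Genes of LPS sensing and NF-kB control were mostly above the controls (41 of 45 genes tested, 10 higher and 0 lower, 4 called by DESeq2, median 1.42). The LPS level exceeded both controls in 34 of the 41, where 36.1% of all genes tested did so. Over all genes tested 2.97% were called higher and 2.31% lower in the gate. In cells with at least 8 markers these shares were larger, at 6.11 and 5.40%. They apply to each list below. The 10 that passed included inhibitors, kinases and ubiquitin ligases. Nfkbia, the inhibitor that holds NF-kB in the cytoplasm, stood at 235, 168 and 1098 CPM and rose by 2.46 ± 0.64. Tnip1, a partner of the ubiquitin editor Tnfaip3, stood at 22.6, 15.5 and 147 CPM and rose by 3.04 ± 0.58, and Tnfaip3 itself stood at 27.1, 23.3 and 135 CPM, a rise of 2.45 ± 0.55. Map3k8, a kinase upstream of MEK, rose by 3.25 ± 0.60 (2.66 without control replicate 2) and the ubiquitin ligase Birc2 by 2.99 ± 0.61 (3.71 without control replicate 2). The receptor gene Tlr4 did not pass, at 31.7, 13.0 and 47.5 CPM and 1.33 ± 0.59 (0.58 without control replicate 2) (adjusted p = 0.242). Its partner Cd14, at 4.52, 11.7 and 38.4 CPM, had adjusted p = 0.104, and 0.0240 in cells with at least 8 markers, where the list counted 15 higher and 0 lower of 37 tested.

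Interferon and cytokine signalling genes that passed were mostly higher (32 of 38 genes tested, 6 higher and 1 lower, 3 called by DESeq2, median 0.58, and 7 higher and 2 lower of 29 in cells with at least 8 markers). Of all genes tested, 2.97% were higher and 2.31% lower in the gate, and 6.11 and 5.40% in those cells. Irf7, the interferon regulatory factor that amplifies type I interferon, stood at 9.04, 22.0 and 388 CPM and rose by 4.44 ± 0.66 (5.40 without control replicate 2). Socs3, an inhibitor of JAK signalling, gave 1, 2 and 117 UMIs and was 22.2-fold (95% counting interval 7.40 to 109) higher. The receptor chain Il4ra rose by 3.88 ± 0.63 (4.61 without control replicate 2) from 13.6, 27.2 and 335 CPM. Usp18, which removes ISG15 from proteins, rose by 3.11 ± 0.80 (not estimable without control replicate 2, since the other control held 0 UMIs). Stat3 and Irf1 changed by 1.24 ± 0.58 and 0.89 ± 0.54 and did not pass.

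In the ubiquitin and ISG15 system, 27 of 27 genes were tested, 7 were higher and 1 lower (1 called by DESeq2), and the median was 1.01. The shares over all genes tested were 2.97% higher and 2.31% lower. Isg15, a ubiquitin-like interferon product, stood at 9.04, 55.7 and 347 CPM and rose by 3.18 ± 0.65 (5.24 without control replicate 2). Ubd, a ubiquitin-like modifier also called FAT10, gave 0, 0 and 64 UMIs and was at least 12.1-fold higher, and the ligase gene Rnf19b rose by 3.27 ± 0.63 (2.59 without control replicate 2). The deubiquitinase gene Otud1 was lower, at 13.6, 36.3 and 2.29 CPM and -3.53 ± 0.97 (-2.50 without control replicate 2), with adjusted p = 0.334 in cells with at least 8 markers.

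The promoter windows of 4 of these genes are shown because each holds a motif of the factors named above. They are the 250 bases before the RefSeq start on GRCm38.p6, read 5′ to 3′ on the gene's strand. Capitals mark the matches to the NF-kB consensus in Nfkbia (chr12:55492648-55492897, minus strand), Tnip1 (chr11:54962941-54963190, minus strand) and Ubd (chr17:37193642-37193891, plus strand), and to the interferon-stimulated response element core (TTTC, any 2 bases, TTTC) in Isg15 (chr4:156200819-156201068, minus strand).
Nfkbia: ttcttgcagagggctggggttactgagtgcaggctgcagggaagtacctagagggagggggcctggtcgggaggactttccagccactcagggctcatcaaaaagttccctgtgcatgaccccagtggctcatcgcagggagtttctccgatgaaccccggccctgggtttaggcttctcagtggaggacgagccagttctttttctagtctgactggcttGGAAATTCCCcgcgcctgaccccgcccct
Tnip1: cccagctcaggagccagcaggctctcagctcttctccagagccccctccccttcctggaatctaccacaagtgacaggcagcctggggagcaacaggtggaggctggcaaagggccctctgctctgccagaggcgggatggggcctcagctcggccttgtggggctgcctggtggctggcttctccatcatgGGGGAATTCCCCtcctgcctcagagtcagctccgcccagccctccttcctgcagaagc
Ubd: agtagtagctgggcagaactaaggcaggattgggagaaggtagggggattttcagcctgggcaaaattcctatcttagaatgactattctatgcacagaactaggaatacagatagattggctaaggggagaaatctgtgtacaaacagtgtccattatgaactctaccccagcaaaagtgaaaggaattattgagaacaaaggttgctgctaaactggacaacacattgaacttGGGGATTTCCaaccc
Isg15: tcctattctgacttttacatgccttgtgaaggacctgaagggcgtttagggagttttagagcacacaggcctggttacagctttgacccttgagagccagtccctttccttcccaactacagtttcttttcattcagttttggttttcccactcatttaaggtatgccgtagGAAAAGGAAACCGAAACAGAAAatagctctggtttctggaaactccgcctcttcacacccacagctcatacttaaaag
Both strands were searched and overlapping matches counted: the capitals in Tnip1 hold 3 overlapping NF-kB matches and those in Isg15 hold 3 overlapping matches of the response element on the opposite strand. Windows were found for 7154 of the genes tested, 193 of them higher and 160 lower. The NF-kB consensus was in 10.9% of the windows of higher genes, 2.50% of those of lower genes and 4.71% of all. The response element core was in 9.84, 3.75 and 2.82%, and the E-box CACGTG, read by clock factors, in 5.18, 8.75 and 8.83%. The windows of Lcn2, Selp, Icam1, Ptgs2 and Dbp held none of the 3 motifs, and that of Bhlhe41 held 1 E-box. A match is a description of the letters and not of binding.

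Many genes known to respond to glucocorticoids were higher, where 2.97% of all genes tested were (21 of 22 genes tested, 12 higher and 0 lower, 10 called by DESeq2, median 2.68, and 11 higher and 0 lower of 20 in cells with at least 8 markers). In those cells 6.11% of all genes tested were higher. The metallothionein genes Mt2 and Mt1, encoding zinc-binding proteins, stood at 9.04, 32.4 and 5224 CPM and 90.4, 131 and 8643 CPM and rose by 7.78 ± 0.99 (9.15 without control replicate 2) and 6.27 ± 0.99. Fkbp5, a co-chaperone of the glucocorticoid receptor, stood at 9.04, 10.4 and 256 CPM, close in both controls, and rose by 4.66 ± 0.65 (adjusted p = 1.52e-05). The transcription factor genes Zbtb16 and Cebpd rose by 3.57 ± 0.60 and 3.40 ± 0.64. The list's genes are not all specific to glucocorticoids, since Lcn2, Nfkbia and the metallothioneins also respond to inflammation or metals. Of the genes tested, 9 were not called. The list members Tsc22d3, Per1, Sgk1, Klf9, Dusp1 and Ddit4 were not among the 12 higher.

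Metal and iron handling genes (17 of 21 genes tested, 8 higher and 0 lower, 5 called by DESeq2, median 2.64, and 9 higher and 0 lower of 16 in cells with at least 8 markers) shared Lcn2, Mt1 and Mt2 with that list. For these and the antioxidant genes, the shares over all genes tested were 2.97% higher and 2.31% lower. They were 6.11 and 5.40% in cells with at least 8 markers. Beyond them, Slc39a14, a zinc and iron importer, stood at 27.1, 19.4 and 438 CPM and rose by 4.30 ± 0.65, and Cp, the ferroxidase ceruloplasmin, stood at 375, 228 and 2828 CPM and rose by 3.24 ± 0.74. Steap4, a metalloreductase, gave 0, 0 and 68 UMIs and was at least 12.9-fold higher. Among antioxidant genes (25 of 27 genes tested, 5 higher and 1 lower, 2 called by DESeq2, median 0.49), Sod2, the mitochondrial superoxide dismutase, stood at 54.3, 64.8 and 698 CPM and rose by 3.53 ± 0.63. Xdh, the xanthine oxidoreductase that makes superoxide and urate, stood at 18.1, 10.4 and 488 CPM and rose by 5.24 ± 0.70. Slc7a11, the cystine importer, gave 0, 0 and 54 UMIs and was at least 10.2-fold higher, and Hmox1, the haem oxygenase, gave 0, 3 and 51 UMIs and was 9.66-fold (95% counting interval 3.13 to 48.4) higher. Catalase was lower, at 36.2, 77.7 and 13.7 CPM for Cat and -2.15 ± 0.61 (-1.39 without control replicate 2).

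Of the circadian clock genes, output and repressor genes made up most of the lower ones (15 of 20 genes tested, 1 higher and 6 lower, 5 called by DESeq2, median -1.57, and 1 higher and 7 lower of 14 in cells with at least 8 markers). Of all genes tested, 2.97% were higher and 2.31% lower in the gate, and 6.11 and 5.40% in those cells. Besides Dbp and Bhlhe41, Per3, a period gene, stood at 131, 102 and 5.73 CPM and changed by -4.29 ± 0.70, and Hlf and Tef, relatives of Dbp, changed by -4.06 ± 0.75 and -2.76 ± 0.69. Nr1d1, the repressor REV-ERB alpha, stood at 113, 214 and 20.6 CPM and changed by -3.02 ± 0.69. Arntl, which encodes the activator BMAL1 and is repressed by REV-ERB proteins, was the 1 gene that rose: it gave 0, 2 and 58 UMIs, 16.5-fold (95% counting interval 4.36 to 139) higher. Per1 and Clock did not pass, at 0.10 ± 0.54 and 0.92 ± 0.54. The hour of harvest is not given in the labels used here, so clock time and treatment cannot be told apart.

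Of the genes that define endothelial identity and quiescence, few passed, and most of those that did were lower. Over all genes tested 2.97% were called higher and 2.31% lower, 5.27% in either direction. At these shares a list of this size would hold few calls. The arterial, venous and capillary, valve and Wnt lists below held more than that, which was not tested. Among receptors and ligands of growth and quiescence signals (22 of 28 genes tested, 0 higher and 3 lower, 2 called by DESeq2, median -0.81), the adhesion receptor Adgrl4 stood at 49.7, 84.2 and 4.58 CPM and changed by -3.90 ± 0.70, and the VEGF and semaphorin co-receptor Nrp1 stood at 705, 586 and 114 CPM and changed by -2.50 ± 0.74 (adjusted p = 0.0413). The lymphangiogenic ligand Vegfc changed by -2.78 ± 0.70 (-1.92 without control replicate 1 and -3.58 without control replicate 2). The angiopoietin receptor Tek did not pass in the gate, at 407, 327 and 109 CPM and -1.74 ± 0.67 (adjusted p = 0.148), but did in cells with at least 8 markers (adjusted p = 0.0113). The VEGF receptors Flt1 and Kdr stood at 217, 108 and 89.9 CPM and 9.04, 15.5 and 7.44 CPM and did not pass. In cells with at least 8 markers the list counted 0 higher and 6 lower of 20, where 5.40% of all genes tested were lower.

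Of the endothelial transcription factors, 29 of 30 were tested, 0 were higher and 0 lower (7 at an unadjusted p under 0.05 in edgeR, 0 called by DESeq2), and the median was -0.43. Klf2, which shear stress maintains, stood at 642, 593 and 519.9 CPM (log2 -0.25 ± 0.67) and was seen in 40.9%, 38.2% and 29.7% of thinned barcodes. Klf4 and Erg changed by -0.82 ± 0.64 and -0.31 ± 0.60, with adjusted p = 0.608 and 0.886. Sox17, an arterial factor, stood at 140.2, 143 and 47.5 CPM and changed by -1.57 ± 0.60, with adjusted p = 0.145 in the gate and 0.0187 in cells with at least 8 markers, where the list counted 1 higher and 4 lower of 28 tested.

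The arterial genes that passed were all lower (23 of 28 genes tested, 0 higher and 6 lower, 6 called by DESeq2, median -1.57). Fbln5, an elastic fibre protein, stood at 389, 714 and 28.6 CPM and changed by -4.27 ± 0.83. Gkn3, a secreted marker of arterial endothelium, stood at 307, 508 and 21.8 CPM and changed by -4.23 ± 0.80 (adjusted p = 8.14e-04). Stmn2, a microtubule regulator, and Crip1, a LIM protein gene, stood at 145, 131 and 8.59 and 1641, 1458 and 117 CPM and changed by -3.97 ± 0.69 and -3.72 ± 0.89. In these 4 both controls lay far above the LPS library. Smooth muscle markers, 0.541% of remaining UMIs in control replicate 2 and 0.0443 and 0.0847% in the others, differed between the libraries too. In cells with at least 8 markers, Fbln5 and Crip1 changed by -4.44 and -3.25. The connexins Gja4 and Gja5 did not pass, at -0.62 ± 0.61 (0.00 without control replicate 2) and 0.82 ± 0.58, nor did the ephrin Efnb2 in the gate (-1.92 ± 0.66, adjusted p = 0.0898), which passed in cells with at least 8 markers (adjusted p = 0.00250). There the list counted 0 higher and 14 lower of 23.

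Of the genes of veins and capillaries that passed, most were higher (11 of 18 genes tested, 4 higher and 1 lower, 5 called by DESeq2, median -0.08). The 4 higher genes were Cxcl9, Car4, Selp and Lrg1, a secreted glycoprotein gene with 0, 2 and 313 UMIs that was 89.0-fold (95% counting interval 24.4 to 738) higher. Slc6a6, the taurine transporter, was lower, at 81.4, 123 and 13.2 CPM and -2.99 ± 0.63. Among lymphatic genes (6 of 12 genes tested, 1 higher and 0 lower, 1 called by DESeq2, median 0.07), only Lyve1 passed. At least 2 of 6 lymphatic markers had a UMI in 1, 0 and 30 gated barcodes (12.1% in the LPS library, exact 95% interval 8.31 to 16.8%), but Prox1, the factor that defines lymphatic endothelium, was in 1, 2 and 1 barcodes. Mononuclear phagocyte markers, of cells that can also carry Lyve1, gave 6, 356 and 231 UMIs in the gate, and their part was not tested. In cells with at least 8 markers Lyve1 changed by 5.87.

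Valve and endocardial genes had the lowest median of the lists (13 of 18 genes tested, 1 higher and 6 lower, 1 called by DESeq2, median -1.92, and 1 higher and 6 lower of 12 in cells with at least 8 markers). Besides Wnt9b and Hapln1, Sost, the Wnt inhibitor sclerostin, gave 1, 315 and 3 UMIs and was 185-fold (95% counting interval 62.8 to 903) lower, which rests on control replicate 2 (fitted log2 -6.89 ± 1.34 (-7.78 without control replicate 1 and -1.33 without control replicate 2)). Cdh11, a cadherin of valve interstitial cells, gave 89, 22 and 16 UMIs and changed by -4.44 ± 1.02 (-1.62 without control replicate 1 and -5.44 without control replicate 2). The proteoglycan gene Vcan was the 1 gene that rose, at 49.7, 23.3 and 119 CPM and 1.86 ± 0.56 (1.25 without control replicate 2). Control replicates 1 and 2 stood far apart for Wnt9b, Sost and Cdh11, and the share of valve tissue in each dissection is not given in the labels used here. In the Wnt pathway (20 of 30 genes tested, 0 higher and 5 lower, 1 called by DESeq2, median -1.33), the secreted inhibitors Sfrp2 and Dkk2 stood at 31.7, 143 and 2.86 and 131, 22.0 and 6.30 CPM and changed by -5.0 ± 0.84 (-3.41 without control replicate 2) and -3.35 ± 0.80 (-1.78 without control replicate 1 and -4.35 without control replicate 2).

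**Figure D4:**
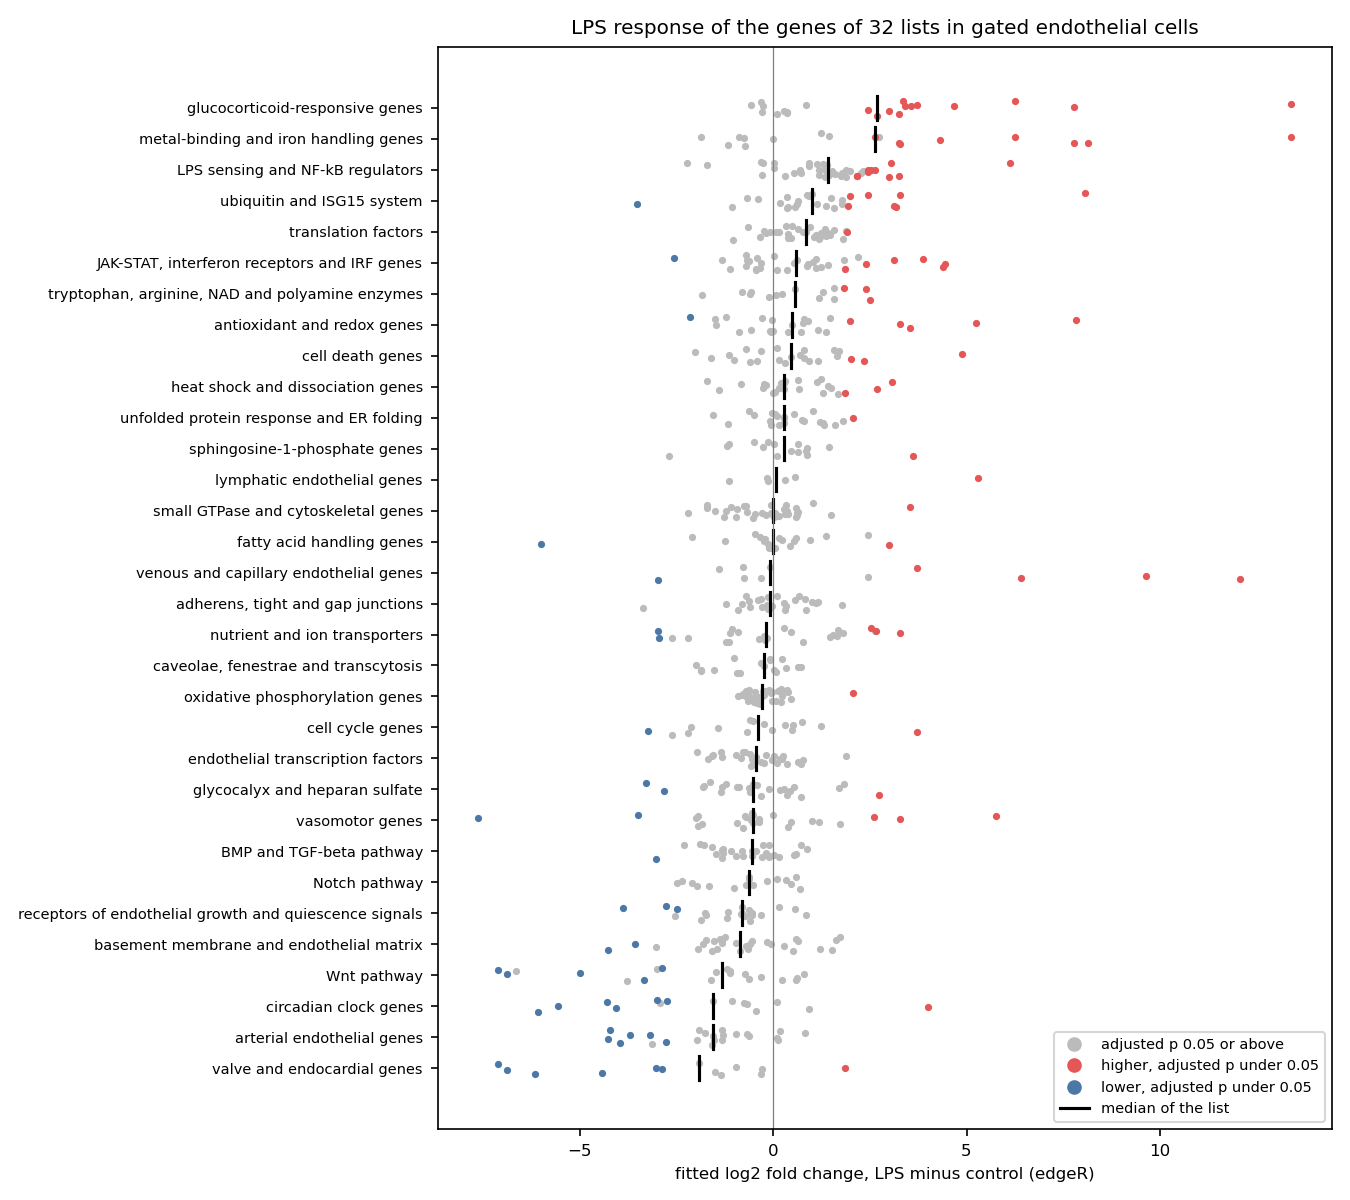
Fitted log2 fold changes (LPS minus control) of the tested genes of 32 lists in gated barcodes, one point per gene, red and blue where the adjusted p was under 0.05, with black bars at the list medians. The highest medians are 2.68 and 2.64 for glucocorticoid-responsive and metal handling genes, and the lowest is -1.92 for valve and endocardial genes.

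Signalling pathways that keep endothelium quiescent gave few calls in the gate. In the Notch pathway, 16 of 22 genes were tested, 0 were higher and 0 lower (4 at an unadjusted p under 0.05 in edgeR, 0 called by DESeq2), and the median was -0.63, with Notch1 at 213, 157 and 196 CPM and 0.10 ± 0.60. In cells with at least 8 markers the ligands Jag1 and Dll1, the target Hey2 and the glycosyltransferase Lfng passed as lower (0 higher and 4 lower of 15). In the BMP and TGF-beta pathway, 29 of 35 genes were tested, 0 were higher and 1 lower (1 called by DESeq2), and the median was -0.56: Bmp6, a ligand made by endothelium, stood at 452, 473 and 56.7 CPM and changed by -3.03 ± 0.74 (adjusted p = 0.0103). The BMP target Id1 and the inhibitor Smad6 did not pass, at 0.72 ± 0.59 and -1.30 ± 0.57. In cells with at least 8 markers this list counted 0 higher and 7 lower of 28, where 5.40% of all genes tested were lower.

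Barrier genes gave no call in the gate. With 5.27% of all genes tested called, few calls are to be expected in lists of this size. The junction genes Pecam1, Cdh5 and Cldn5 served the gate and were not tested. Of these, Cldn5 stood at 515, 687 and 187 CPM of remaining UMIs and Pecam1 was lowest with LPS too, while Cdh5 stood at 580, 507 and 599. Of adherens, tight and gap junction genes, 27 of 35 were tested, 0 were higher and 0 lower (2 at an unadjusted p under 0.05 in edgeR, 0 called by DESeq2), and the median was -0.09: the scaffold Tjp1 stood at 95, 109 and 128 CPM and the catenin Ctnnb1 at 366, 496 and 349 CPM. The connexin gene Gja1, at 40.7, 19.4 and 91.6 CPM and 1.78 ± 0.57 (1.17 without control replicate 2) in the gate (adjusted p = 0.0618), passed in cells with at least 8 markers (adjusted p = 1.01e-07). Of caveolae and transcytosis genes, 17 of 23 were tested, 0 were higher and 0 lower (4 at an unadjusted p under 0.05 in edgeR, 1 called by DESeq2), and the median was -0.24. Cav1, the coat protein of caveolae, stood at 755, 814 and 196 CPM and changed by -2.0 ± 0.74, with adjusted p = 0.122 in the gate and 0.00125 in cells with at least 8 markers. There this list counted 0 higher and 4 lower of 14, where 5.40% of all genes tested were lower.

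Of glycocalyx genes, 25 of 34 were tested, 1 was higher and 2 lower (1 called by DESeq2), and the median was -0.52. The syndecans, transmembrane heparan sulfate proteoglycans, parted: Sdc4 stood at 31.7, 49.2 and 283 CPM and changed by 2.73 ± 0.59, while Sdc1 stood at 58.8, 47.9 and 5.15 CPM and changed by -3.30 ± 0.67. In the basement membrane list, 29 of 34 genes were tested, 0 were higher and 2 lower (1 called by DESeq2), and the median was -0.87. Fbln5 and Col15a1 were the lower ones, and Col15a1 changed by -3.57 ± 0.96 (-2.50 without control replicate 2). The type IV collagens Col4a1 and Col4a2 stood at 158, 197 and 592 and 67.8, 84.2 and 238 CPM, with adjusted p = 0.105 and 0.105 in the gate and 0.00130 and 0.00843 in cells with at least 8 markers (3 higher and 10 lower of 27).

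Sphingosine-1-phosphate, the lipid mediator in the series title, acts on endothelium through the receptor S1PR1. Of its genes, 16 of 25 were tested, 1 was higher and 0 lower (0 called by DESeq2), and the median was 0.28. Sphk1, the kinase that makes the lipid, gave 2, 5 and 157 UMIs, levels of 9.04, 6.48 and 89.9 CPM, and rose by 3.62 ± 0.64 (adjusted p = 3.85e-04). S1pr1 stood at 379.8, 176 and 748 CPM and changed by 1.45 ± 0.65 (2.09 without control replicate 1), with adjusted p = 0.240 in the gate and 0.0126 in cells with at least 8 markers. A UMI of S1pr1 was seen in 54.5%, 12.2% and 49.7% of thinned barcodes, so control replicate 1 lay near the LPS library and control replicate 2 below both. The other receptor genes gave 0, 3 and 7 UMIs for S1pr2, 5, 8 and 18 for S1pr4 and none for S1pr3 and S1pr5. The exporter Spns2 gave 3, 13 and 4 UMIs (adjusted p = 0.301), and Plpp3, a phosphatase that degrades the lipid outside the cell, stood at 303, 180.1 and 327 CPM (adjusted p = 0.818).

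Of vasomotor genes, 26 of 38 were tested, 3 were higher and 2 lower (3 called by DESeq2), and the median was -0.53. Ptgs2, Hmox1 and Adm, the vasodilator adrenomedullin, rose, Adm from 0, 11.7 and 52.1 CPM by 2.61 ± 0.69 (not estimable without control replicate 2, since the other control held 0 UMIs). Nppc and the potassium channel Kcnn3 were lower, Kcnn3 at 31.7, 35.0 and 2.86 CPM and -3.50 ± 0.85. Nos3, the endothelial nitric oxide synthase, stood at 353, 187 and 345 CPM and Edn1, endothelin 1, at 217, 272 and 337 CPM, and neither passed (adjusted p = 0.866 and 0.818). Thbd, the anticoagulant receptor thrombomodulin, stood at 335, 168 and 69.3 CPM and changed by -1.83 ± 0.67, with adjusted p = 0.122 in the gate and 0.0103 in cells with at least 8 markers.

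Stress and housekeeping lists mostly held few calls in the gate. In cells with at least 8 markers the heat shock list counted 7 higher and 1 lower of 25. The unfolded protein response list counted 4 and 1 of 23 there. Of all genes tested in those cells, 6.11% were higher and 5.40% lower. In the heat shock and dissociation list, 25 of 25 genes were tested, 3 were higher and 0 lower (0 called by DESeq2), and the median was 0.28: Fosb, Atf3 and Ier3, immediate-early factors that tissue digestion can also induce, stood at 0, 7.77 and 49.2, 18.1, 5.18 and 57.3 and 36.2, 62.2 and 188 CPM and changed by 3.08 ± 0.75 (not estimable without control replicate 2, since the other control held 0 UMIs), 2.69 ± 0.67 (3.43 without control replicate 1 and 1.65 without control replicate 2) and 1.86 ± 0.56. In the unfolded protein response, 23 of 27 genes were tested, 1 was higher and 0 lower (0 called by DESeq2), and the median was 0.28, with Atf4 at 2.06 ± 0.55 (2.65 without control replicate 2). Of oxidative phosphorylation genes, 37 of 37 were tested, 1 was higher and 0 lower (0 called by DESeq2), and the median was -0.28, the 1 being cytochrome c (Cycs, 2.07 ± 0.54). Of translation factors, 31 of 31 were tested, 1 was higher and 0 lower (0 called by DESeq2), and the median was 0.84, with 11 higher and 0 lower of 31 in cells with at least 8 markers.

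Among cell death genes, 23 of 33 were tested, 3 were higher and 0 lower (1 called by DESeq2), and the median was 0.45. Zbp1, a sensor of left-handed nucleic acids, stood at 4.52, 7.77 and 207 CPM and rose by 4.88 ± 0.65 (5.48 without control replicate 2) (adjusted p = 7.87e-06), and Casp4, the intracellular sensor of lipopolysaccharide, stood at 36.2, 47.9 and 219.8 CPM and rose by 2.34 ± 0.57. Of cell cycle genes, 16 of 31 were tested, 1 was higher and 1 lower (1 called by DESeq2), and the median was -0.39: the inhibitor Cdkn1a stood at 81.4, 20.7 and 584 CPM and changed by 3.71 ± 0.69 (4.81 without control replicate 1 and 2.84 without control replicate 2), and its relative Cdkn1c at 22.6, 49.2 and 4.01 CPM and -3.25 ± 0.77 (-2.46 without control replicate 2). Of small GTPase and cytoskeletal genes, 37 of 40 were tested, 1 was higher and 0 lower (2 called by DESeq2), and the median was -0.01: Rnd1, which loosens adhesion and stress fibres, stood at 18.1, 38.9 and 364 CPM and changed by 3.54 ± 0.62 (4.32 without control replicate 2).

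Metabolic lists gave scattered calls in the gate. In cells with at least 8 markers the transporter list counted 7 higher and 3 lower of 24. The fatty acid list counted 2 and 3 of 16 there, and the enzyme list 5 and 0 of 13. Of all genes tested in those cells, 6.11% were higher and 5.40% lower. Of nutrient and ion transporters, 26 of 30 were tested, 3 were higher and 2 lower (3 called by DESeq2), and the median was -0.18: the glucose transporter Slc2a1 changed by 2.67 ± 0.67 (3.44 without control replicate 2) and the sodium pump subunit Atp1b1, at 181, 179 and 22.9 CPM, by -2.97 ± 0.67. Of fatty acid genes, 20 of 29 were tested, 1 was higher and 1 lower (1 called by DESeq2), and the median was -0.02: Angptl4, an inhibitor of lipoprotein lipase, changed by 2.99 ± 0.62 (3.92 without control replicate 2), opposite to G0s2. Of tryptophan, arginine, NAD and polyamine enzymes, 15 of 24 were tested, 3 were higher and 0 lower (1 called by DESeq2), and the median was 0.56: Wars, the tryptophanyl-tRNA synthetase, Nampt, an enzyme of NAD synthesis, and Odc1, the first enzyme of polyamine synthesis, changed by 2.50 ± 0.58, 2.39 ± 0.57 and 1.84 ± 0.54.

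The LPS response of the gated endothelial barcodes was set against that of gated fibroblasts (37, 355 and 1060 barcodes) and mononuclear phagocytes (60, 193 and 250) of the same libraries, by a test of the difference between responses with the library as a block. Against fibroblasts the endothelial response was higher for 4 genes (0.0380% of 10538 tested) and lower for 2 (0.0190%). Akap12, a kinase anchoring protein gene that supports the barrier, stood at 3.66, 6.26 and 70.5 CPM in endothelial and 163, 120.0 and 58.8 CPM in fibroblast sums, a log2 difference of 4.79 ± 0.80 (adjusted p = 2.49e-05). Cmah, the hydroxylase that makes N-glycolylneuraminic acid, stood at 3.66, 3.13 and 92.8 CPM against 61.0, 21.6 and 29.0 CPM, a difference of 4.85 ± 0.93. Both were lower in control endothelial than in control fibroblast sums. Serping1, the C1 inhibitor, stood at 22.0, 53.2 and 367 against 1674, 669 and 923 CPM (3.30 ± 0.75), and Nid1, the basement membrane protein nidogen 1, from 29.3, 36.5 and 99.4 against 536, 248 and 107 CPM (3.22 ± 0.72). The endothelial response was lower for Stmn2 (-3.91 ± 0.83) and for Plscr2, a scramblase family gene (-5.52 ± 1.21), whose fibroblast controls held 0 and 23 UMIs for Stmn2 and 0 and 2 for Plscr2.

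Against phagocytes the endothelial response was higher for 6 genes (0.0584% of 10274 tested) and lower for 9 (0.0876%). The 8 with the largest difference are named here. G0s2 moved in opposite directions, 19.7, 55.8 and 0.535 CPM in endothelial and 6.29, 3.67 and 133 CPM in phagocyte sums, a log2 difference of -11.10 ± 1.30 (adjusted p = 1.52e-13). It rests on 1 LPS endothelial UMI and on 1 and 3 control phagocyte UMIs. Thbs1, the matricellular thrombospondin 1, stood at 363, 348 and 94.6 against 6.29, 109 and 489 CPM (-5.15 ± 1.24), and Plk2, a stress-induced kinase, at 86.7, 70.3 and 12.3 against 0, 8.55 and 28.2 CPM (-4.64 ± 0.99). Cd38, an NAD-consuming enzyme, stood at 7.88, 33.9 and 37.4 against 0, 14.7 and 355 CPM (-4.58 ± 1.09). Hsd11b1, which regenerates active glucocorticoid, stood at 3.94, 10.9 and 1.60 against 0, 3.67 and 45.8 CPM (-6.38 ± 1.5), and Tppp3 at 47.3, 58.2 and 1.07 against 56.6, 55.0 and 54.6 CPM (-5.47 ± 1.11). On the other side were Cmah again (5.57 ± 1.17) and Neurl3, a ubiquitin ligase gene, at 0, 10.9 and 117 against 94.3, 123 and 70.9 CPM (4.66 ± 0.99). For these differences DESeq2 called 0 genes against fibroblasts and 0 against phagocytes, with 34 and 85 at an unadjusted p under 0.05, and edgeR called 6 and 15. Barcodes over 20% Gm42418 were 28, 0 and 947 of the fibroblasts and 36, 0 and 164 of the phagocytes.

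**Figure D5:**
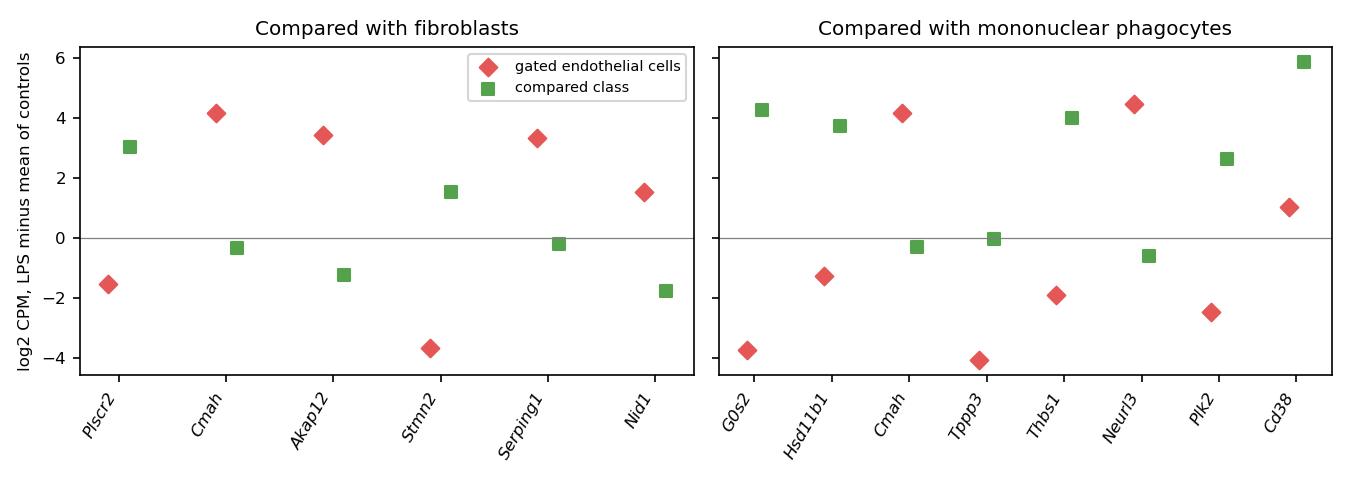
LPS level minus the mean of the controls, in log2 CPM with 2 counts added to each sum, for gated endothelial barcodes (diamonds) and the compared class (squares), for the 6 genes that differed from fibroblasts and the 8 largest differences from phagocytes. G0s2 has the widest gap, with endothelial and phagocyte points on opposite sides of 0.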

How the data were processed

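The deposited files hold raw UMI counts per gene and barcode for 2 control libraries and 1 LPS library, made by the authors with Cell Ranger 3.1 on mm10, per the submitters' processing notes, where R 4.2.1 and Seurat 4.2.0 are listed as well. The sources used here give neither the annotation release nor the rule that called barcodes. Replicate numbers, which the labels lack, follow accession order.

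Gating, sums and tests were computed here (Python 3.11.15, R 4.3.3). No doublet caller was run. UMI counts of the gated barcodes were summed per library, since cells are not replicates, and tested with edgeR 4.0.16 (quasi-likelihood test, TMM, filterByExpr, Benjamini-Hochberg over all genes tested). With 2 libraries against 1 there is 1 residual degree of freedom, and the fit takes the spread of the LPS library to equal that of the controls. Nothing says that the control libraries came from separate experiments, so p-values measure only the spread between these samples, which may be technical. CPM are scaled by TMM factors. Alternatives included DESeq2 1.42.0, other gates and thinned barcodes.

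Fold changes of genes with 0 UMIs in a group are bounds against 3 UMIs over the group, and those with 1 to 3 are ratios with a 95% counting interval. Intervals cover counting error only. Differences between classes were tested by a class by LPS term, blocked on library. Genes that gates used were described without a test.

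Named genes were the 12 with the largest change each way among those called, with a mean of at least 20 CPM, an LPS level outside both controls and at least 2 times the level of other barcodes, leaving out predicted, mitochondrial, ribosomal, haemoglobin and immunoglobulin genes. In each list they were up to 4 called members, and members whatever their result where a role is given. For differences between classes they were the 8 largest. The members and the gene lists were chosen with earlier results of these data known. Promoter windows are from RefSeq. Some genes of the lists are counted but not reported by name here.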

Additional observations from a re-analysis of the deposited data

Results flagged for a closer look

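The LPS response differed between gated endothelial barcodes and another class of the same libraries, by edgeR's test of the difference itself at an adjusted p under 0.05, for the genes below. Against fibroblasts the log2 difference was 4.85 for Cmah, 4.79 for Akap12, 3.30 for Serping1 and 3.22 for Nid1, where the endothelial response was the higher one. It was -5.52 for Plscr2 and -3.91 for Stmn2, where it was the lower one. Against mononuclear phagocytes the difference was 5.57 for Cmah and 4.66 for Neurl3. It was -11.10 for G0s2, -6.38 for Hsd11b1, -5.47 for Tppp3, -5.15 for Thbs1, -4.64 for Plk2 and -4.58 for Cd38. Cmah is the 1 gene among these that differed from both classes. It had 1 and 3 UMIs in the endothelial control sums, and 1 in the phagocyte sum of control replicate 1. G0s2, Plscr2, Hsd11b1 and Plk2 had at most 7 UMIs in either control sum of the compared class. In control replicate 1 the compared class also held 1 UMI of Thbs1, 0 of Cd38 and 0 of Stmn2. Few counts set the size of the differences for Cmah, G0s2, Plscr2, Hsd11b1, Plk2, Thbs1, Cd38 and Stmn2. Counts were also few for Akap12 and Neurl3 in the endothelial controls, at 3.66 and 6.26 CPM and at 0 and 10.9 CPM. Tppp3 had 2 UMIs in the LPS endothelial sum. For Serping1 and Nid1 every fibroblast sum held far more counts than these, but the endothelial sums of control replicate 1 stood at only 22.0 and 29.3 CPM. The same libraries and the same gated endothelial barcodes enter both comparisons.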

How the results depend on the processing

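The counts of 266 higher and 207 lower genes became 94 and 58 with DESeq2, 413 and 351 without barcodes in which another class reached the endothelial sum, and 86 and 32 with each barcode thinned to 1000 UMIs. A stricter gate (6 markers and 0.6%) gave 324 lower genes. Without barcodes over 20% Gm42418 the counts were 0 and 0, with 555 and 564 genes at an unadjusted p under 0.05. There edgeR pooled the spread over genes less, with 2.05 prior degrees of freedom in place of 30.2. Cells with at least 8 markers, chosen after seeing the data, gave 463 and 409. For them the pooling over genes was full, with infinite prior degrees of freedom, and control replicate 1 held 14 barcodes. Pooling was also full for the stricter gate and without barcodes in which another class reached the sum. Against control replicate 1 alone, 201 of the 207 lower genes were below it, which the levels relative to both controls already show. Genes whose response differed from fibroblasts numbered 6, or 0 with DESeq2 and 21 without barcodes over 20% Gm42418. Against phagocytes there were 15, 0 and 23. The gate held 30, 162 and 248 barcodes. It held 19, 63 and 81 when stricter, and 15, 68 and 159 with at most 10% mitochondrial UMIs. With up to 25% it held 52 and 513 in the controls. Of 88 named called genes, 88 missed the threshold without barcodes over 20% Gm42418 and 38 with DESeq2. Of 60 that could be tested after thinning, 25 missed it. No paired analysis was possible because there is 1 LPS library and the labels give no shared replicate numbers. Control replicate 1 rests on 30 barcodes.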
